A study of Mus musculus with 16 samples.

Results

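Twist1, its close relative Twist2, the E-proteins that pair with them (encoded by Tcf3, Tcf4 and Tcf12) and the inhibitors of E-proteins (encoded by Id1, Id2, Id3 and Id4) were followed in mouse cortical neurons that expressed mutant or wild-type huntingtin. These 9 genes were taken by name from the 41388 genes of the count files, through their Ensembl identifiers, with earlier results of these data known. The neurons were primary cultures of the cortex of Swiss Webster mice at embryonic day 16. They were given 2 lentiviruses on culture day 5, which carried exon 1 of huntingtin (Htt) and a short hairpin (shRNA), and were harvested on day 10. The 4 groups held 4 libraries each. They were Htt exon 1 with 25 glutamines (25Q) and a control shRNA against luciferase, Htt exon 1 with 72 glutamines (72Q) and the same control shRNA, and 72Q with either of a pair of hairpins against Twist1, called shRNA 1 and shRNA 2. All groups therefore carried an Htt exon 1 virus and an shRNA virus, and no Twist1 shRNA was combined with 25Q. The question of the study was what part Twist1 plays in the transcript changes caused by mutant huntingtin. Each of the experiments labelled exp107, exp108, exp109a and exp109b gave 1 library of each group. The labels do not say whether exp109a and exp109b came from different cultures. The p-values rest on the spread among these libraries, part of which may be technical.

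Basic helix-loop-helix (bHLH) factors bind DNA as dimers at the E-box, a short motif whose core is CANNTG. E-proteins are made in most tissues and serve as the shared partner of the tissue-specific factors, among them the proneural factors of the cortex and Twist1. Id proteins have the dimerization part without the DNA-binding part, so an E-protein held by an Id protein cannot bind an E-box. In mouse skull sutures Twist1 acts as a homodimer or as a heterodimer with an E-protein, and Id proteins shift it towards the homodimer. Twist1 is best known from mesoderm and neural crest, and loss of a copy of TWIST1 in humans causes Saethre-Chotzen syndrome. Id genes are direct targets of bone morphogenetic protein (BMP) signalling through SMAD proteins, which can bind the GC-rich element GGCGCC.

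The promoter stretches of Twist1 and of Id2, Id3 and Id4 are shown because the values below turn on the transcripts made from them. Each is the 250 bases before the start of the gene in RefSeq, on the build GRCm38.p6, written 5′ to 3′ on the strand of the gene, with every CANNTG and every GGCGCC in capitals.
Twist1 (chr12:33957421-33957670, plus strand): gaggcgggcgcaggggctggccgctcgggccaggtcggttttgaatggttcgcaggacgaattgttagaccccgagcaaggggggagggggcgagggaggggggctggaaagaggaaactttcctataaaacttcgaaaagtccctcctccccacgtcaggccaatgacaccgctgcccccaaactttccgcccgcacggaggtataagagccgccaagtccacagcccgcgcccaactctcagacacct
Id2 (chr12:25096093-25096342, minus strand): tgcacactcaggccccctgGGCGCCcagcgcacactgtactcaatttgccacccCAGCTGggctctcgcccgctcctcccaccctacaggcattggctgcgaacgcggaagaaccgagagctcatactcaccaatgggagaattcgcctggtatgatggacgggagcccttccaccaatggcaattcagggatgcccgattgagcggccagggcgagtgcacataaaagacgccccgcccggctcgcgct
Id3 (chr4:136143572-136143821, plus strand): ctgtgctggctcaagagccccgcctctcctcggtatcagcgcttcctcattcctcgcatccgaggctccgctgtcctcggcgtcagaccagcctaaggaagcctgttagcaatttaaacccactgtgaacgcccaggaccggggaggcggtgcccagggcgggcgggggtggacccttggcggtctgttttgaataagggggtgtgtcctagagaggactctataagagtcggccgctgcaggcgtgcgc
Id4 (chr13:48260866-48261115, plus strand): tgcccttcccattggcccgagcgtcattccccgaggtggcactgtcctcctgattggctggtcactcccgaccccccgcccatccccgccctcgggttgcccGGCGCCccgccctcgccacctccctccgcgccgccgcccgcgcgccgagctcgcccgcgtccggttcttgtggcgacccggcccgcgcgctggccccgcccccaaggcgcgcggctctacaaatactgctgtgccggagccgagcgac

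Of the 9 genes, 7 had entries that were searched, and Id1 and Tcf4 were not searched. The search read the letters CANNTG and GGCGCC, which are the same on both strands. Among all 32851 RefSeq promoter stretches of this length, 66.2% held a CANNTG and 9.59% held a GGCGCC. The Id2 stretch held a CAGCTG whose first base lay 196 bases before the start and a GGCGCC that began 231 bases before it. In Id4 the search found no CANNTG and found a GGCGCC that began 148 bases before the start. In Twist1, Id3 and Twist2 it found neither motif within these windows. The Id3 window lies wholly within the counted gene, whose start is at 136143497, and the bases before that start were not searched. The Id4 window ends at 48261115, while its counted gene starts at 48261427. Tcf3 held a CACTTG that began 54 bases before the start. Of the 3 starts of Tcf12, the first 2 held a CAGCTG at 240 bases and a CAAGTG at 149 bases, and the third held neither motif. The matches describe letters and do not show a bound site.

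Levels are given as CPM, the reads of a gene scaled to a common library size, after trimmed-mean (TMM) scaling of the totals, which were between 15814525 and 19533034 counts. Where genes are compared with each other, CPM per kilobase of exon is used. The length is that of all annotated exons of a gene and not of a single transcript. Differences were tested with edgeR's quasi-likelihood test over 15103 genes, with the experiment as a block, and a gene was called at a Benjamini-Hochberg adjusted p under 0.05. Of the 9 genes, 8 passed the filter on low counts and Twist2 did not. All 10 pan-neuronal markers were detected, with a summed level of 6311 to 10670 CPM per library. Markers of astrocytes and radial glia summed to between 2393 and 3266 CPM, those of the oligodendrocyte lineage to between 792.5 and 1329 CPM, and those of microglia to between 21.3 and 30.5 CPM. Transcripts of neurons and of glia were thus measured together, and in such bulk samples fewer cells of a type and less RNA per cell cannot be told apart.

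**Figure D1:**
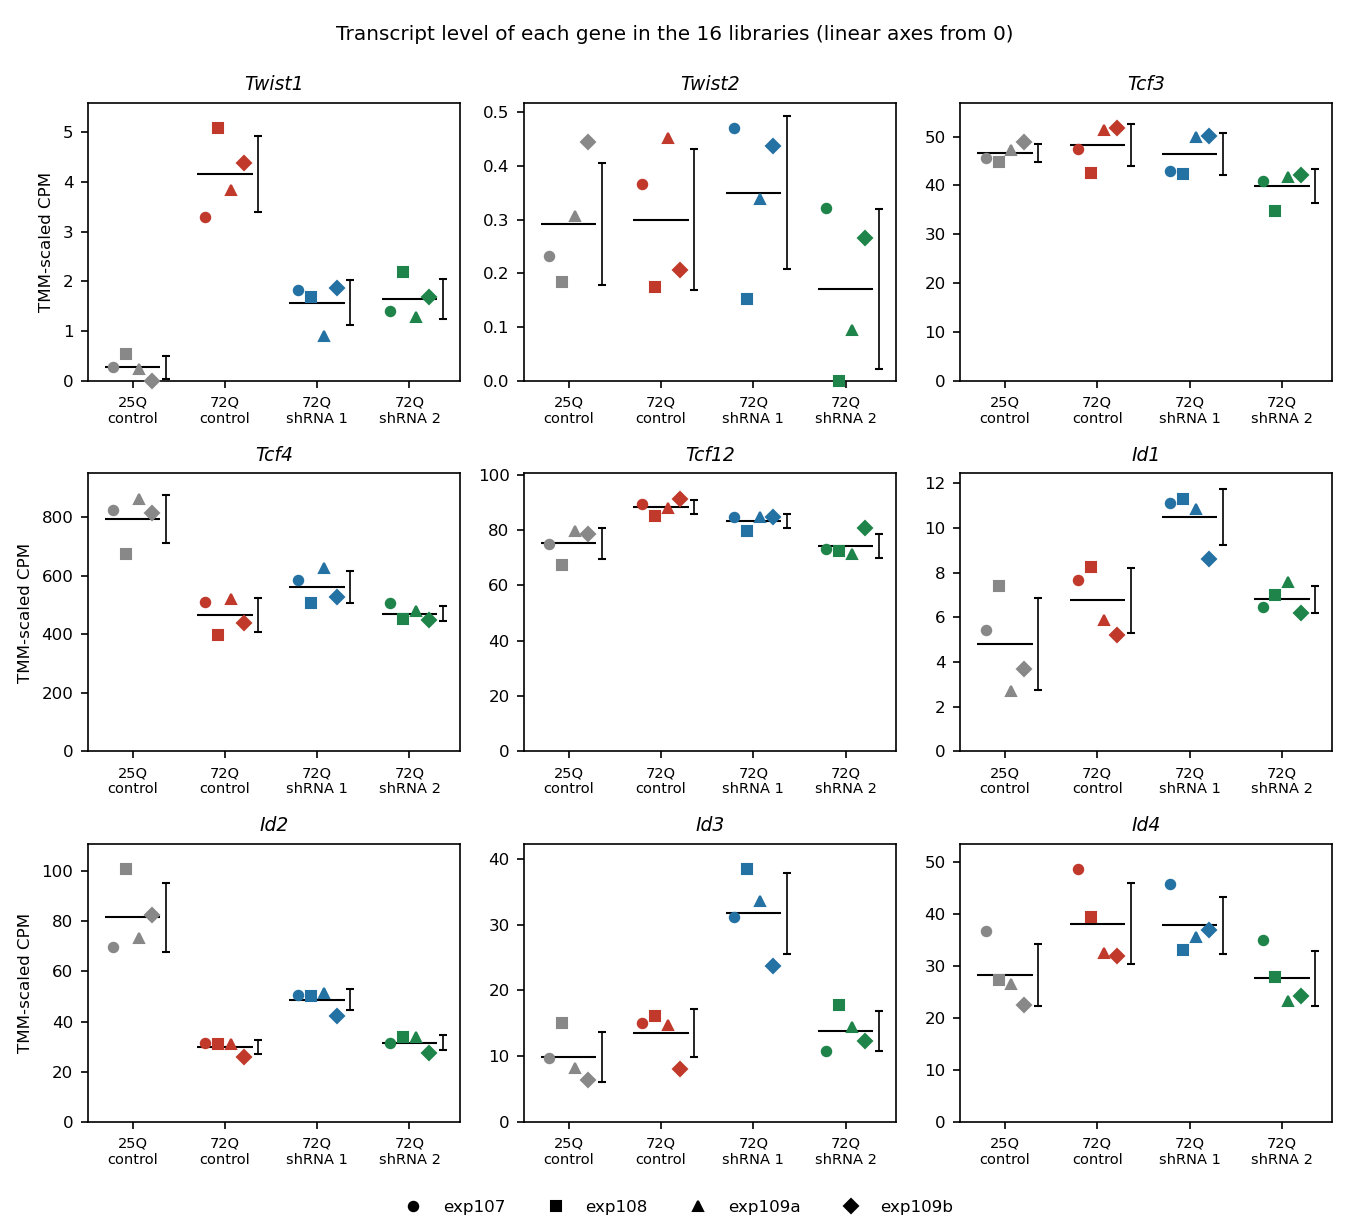
TMM-scaled CPM (linear axis from 0, a separate scale for each gene) of the 9 genes in each of the 16 libraries. Marker shapes stand for the experiments, the horizontal line for the mean of 4 libraries and the bar for the SD. Twist1 is highest in the 72Q control libraries (3.29 to 5.08 CPM), Id2 and Tcf4 are highest in 25Q, and Id3 is highest with Twist1 shRNA 1 (23.7 to 38.4 CPM).

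Twist1 RNA was near the detection limit in 25Q neurons, rose with 72Q, and was lowered by both hairpins to a level that remained above 25Q. Twist1 (ENSMUSG00000035799, chr12:33957671-33959817, plus strand, GRCm38) had 5, 9, 4 and 0 reads in the 25Q libraries of exp107, exp108, exp109a and exp109b, an order kept below. These are 0.290, 0.550, 0.245 and 0 CPM, and a count of 0 in exp109b allows up to 0.191 CPM, the worth of 3 reads there, counting error only. The 72Q control libraries had 3.29, 5.08, 3.84 and 4.39 CPM, from 54 to 87 reads each. No 25Q library reached the lowest 72Q library. The fitted difference was 3.47 ± 0.27 (log2, SE), an 11.1-fold rise (edgeR, adjusted p = 4.77e-12), in 4 of 4 experiments. The size of this fold depends on few reads in 25Q. The ratio of the pooled counts, 294 against 18, was 15.2 with a 95% interval for counting error of 9.45 to 26. The prior count of 2 in the fit draws the fold and its SE towards 0. That SE is therefore narrower than the counting error alone. The share of reads from the mitochondrial genome was 2.41 to 2.78% in 25Q, 3.16 to 3.59% in 72Q control, 2.39 to 3.26% with shRNA 1 and 2.10 to 2.78% with shRNA 2, and its part in the Twist1 values was not tested.

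With shRNA 1, Twist1 was at 1.82, 1.69, 0.904 and 1.87 CPM. With shRNA 2 it was at 1.40, 2.19, 1.29 and 1.70 CPM. Each of these 8 libraries was below every 72Q control library and above every 25Q library. Twist1 fell by 1.35 ± 0.20 on the log2 scale with shRNA 1 (edgeR, adjusted p = 1.52e-06) and by 1.29 ± 0.19 with shRNA 2 (adjusted p = 2.97e-06), so that 0.391 and 0.409 times the 72Q level were left. No difference between the hairpins passed the test: shRNA 1 minus shRNA 2 was -0.07 ± 0.22 (log2, adjusted p = 0.826), with a 95% interval of -0.53 to 0.39. Compared with 25Q, Twist1 remained 4.32-fold higher with shRNA 1 (adjusted p = 1.04e-06) and 4.52-fold higher with shRNA 2 (adjusted p = 3.39e-07). The knockdown rests on 110 reads with shRNA 1 and 125 with shRNA 2.

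Twist2 (chr1:91801461-91848028, plus strand), the closest relative of Twist1, was barely detected and did not follow its rise with 72Q. Its mean was 0.292 CPM in 25Q, 0.300 in the 72Q control group, 0.350 with shRNA 1 and 0.171 with shRNA 2, from 19, 21, 24 and 13 reads. The library of shRNA 2 in exp108 had 0 reads, which allows up to 0.164 CPM. All groups overlapped, and the ratio of pooled counts in 72Q against 25Q was 1.03, with a counting interval of 0.526 to 2.02. Against 72Q control it was 1.15 (0.612 to 2.17) with shRNA 1 and 0.57 (0.262 to 1.19) with shRNA 2. The latter interval holds the Twist1 ratio of 0.391, so whether Twist2 fell alike with shRNA 2 cannot be told. Twist2 was higher with shRNA 1 than with shRNA 2 in 4 of 4 experiments, with a ratio of 2.02 (0.986 to 4.31). Twist2 shares 1477 exonic bases with Gm29100 on the opposite strand, which had 234 reads in all against 77 for Twist2. No source used here says whether reads were counted by strand, and without strand the reads of the pair cannot be told apart.

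Among the E-protein genes, Tcf4 was the most abundant per kilobase in every group and changed most in 72Q. In 25Q it made up 79.7 ± 1.26% (SD, n = 4) of the summed E-protein level per kilobase, against 14.3 ± 1.1% for Tcf3 and 5.97 ± 0.173% for Tcf12. These shares depend on the exon lengths, 12250 bases for Tcf4, 4039 for Tcf3 and 15529 for Tcf12. In CPM the 25Q mean of Tcf12 (75.15) was above that of Tcf3 (46.65). Tcf4 (chr18:69344146-69687967, plus strand), whose loss of a copy causes Pitt-Hopkins syndrome in humans, was at 825, 673.5, 863 and 813 CPM in the 25Q libraries. In the 72Q control libraries it was at 510.4, 396.5, 519.7 and 438 CPM. The highest 72Q library was below the lowest 25Q library. Tcf4 fell by 0.77 ± 0.048 on the log2 scale and so fell by 41.4% (edgeR, adjusted p = 4.45e-14), in 4 of 4 experiments. Neuronal markers were lower in the same libraries. Of the 10 pan-neuronal markers 7 were called lower and 1 higher in 72Q, with a sum of 9455 to 10670 CPM in 25Q and 6608 to 7684 CPM in 72Q control, none at 0. The part of these markers in the Tcf4 values was not tested.

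With shRNA 1, Tcf4 was at 586, 506, 626 and 529 CPM, and with shRNA 2 at 506, 451, 478 and 449.6 CPM. The shRNA 1 libraries lay between those of 25Q and most of those of 72Q control, with an overlap at 506 to 519.7 CPM. Tcf4 rose by 0.27 ± 0.048 (log2) with shRNA 1 over 72Q control (edgeR, adjusted p = 2.35e-05), in 4 of 4 experiments. For shRNA 2 the difference was 0.02 ± 0.048 (adjusted p = 0.741), with a 95% interval of -0.07 to 0.12. The direct test of the hairpins gave a 1.19-fold higher Tcf4 level with shRNA 1 (adjusted p = 6.25e-05), and these groups did not overlap. Tcf4 remained lower than in 25Q with either hairpin, by 0.50 and by 0.75 on the log2 scale (adjusted p = 3.22e-10 and 3.49e-14).

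Tcf12 (chr9:71842688-72111871, minus strand), which encodes HEB, moved less and in the other direction with 72Q. It was at 74.9, 67.4, 79.7 and 78.7 CPM in 25Q and at 89.2, 85.1, 87.9 and 91.3 CPM in the 72Q control group. The groups did not overlap, and Tcf12 rose by 0.23 ± 0.048 (log2, edgeR, adjusted p = 0.000111). With shRNA 1 it was at 84.5, 79.6, 84.7 and 84.6 CPM. All of these were below every 72Q control library, narrowly so, but the difference of -0.08 ± 0.047 (log2) did not pass the test (adjusted p = 0.151). With shRNA 2 Tcf12 was at 73.0, 72.3, 71.2 and 80.6 CPM, all below the 72Q control libraries, and fell by 0.25 ± 0.047 on the log2 scale (adjusted p = 7.34e-05). Its shRNA 2 level and its 25Q level overlapped, and their difference was -0.02 (log2, adjusted p = 0.777), with a 95% interval of -0.11 to 0.08. That last value turned to 0.19 (adjusted p = 0.000663) when library totals were used without scaling factors. The test of shRNA 1 against shRNA 2 gave 0.17 ± 0.047 (log2, adjusted p = 0.00375), which library totals alone lowered to 0.09 (adjusted p = 0.132).

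Tcf3 (chr10:80409514-80433647, minus strand), which encodes E12 and E47, kept close to its level except with shRNA 2. It was at 45.5, 44.9, 47.3 and 48.9 CPM in 25Q and at 47.5, 42.6, 51.3 and 51.7 CPM in the 72Q control group. With shRNA 1 it was at 43.0, 42.4, 50.0 and 50.2 CPM and with shRNA 2 at 40.8, 34.7, 41.8 and 42.1 CPM. The shRNA 2 libraries were below every library of the other 3 groups. The difference of 72Q from 25Q was 0.05 ± 0.053 (log2, adjusted p = 0.463), with a 95% interval of -0.06 to 0.15, and with library totals alone it became 0.18 (adjusted p = 0.00412). With shRNA 1 the difference from 72Q control was -0.06 ± 0.052 (adjusted p = 0.387). With shRNA 2 Tcf3 fell by 0.28 ± 0.053 on the log2 scale (edgeR, adjusted p = 8.71e-05), and shRNA 1 minus shRNA 2 was 0.22 ± 0.053 (adjusted p = 0.000929).

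Id2 was the Id gene with the largest change in 72Q, and it went down while the other Id genes went up. Id2 (chr12:25093801-25096092, minus strand), which in the 25Q neurons made up 70.6 ± 5.51% of the summed Id level per kilobase, was at 69.7, 101, 73.2 and 82.4 CPM in 25Q. In the 72Q control group it was at 31.5, 31.1, 31.1 and 25.8 CPM. No library of 72Q came near the lowest of 25Q. Id2 fell by 1.44 ± 0.083 on the log2 scale and so fell by 63.2% (edgeR, adjusted p = 7.58e-12), in 4 of 4 experiments.

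With shRNA 1, Id2 was at 50.5, 50.4, 51.6 and 42.4 CPM, above every 72Q control library and below every 25Q library. It rose by 0.71 ± 0.085 (log2) over 72Q control, or 1.63-fold (edgeR, adjusted p = 7.86e-07). The rise within an experiment was between 0.67 and 0.71 on the scale of log2(CPM + 1). With shRNA 2, Id2 was at 31.4, 33.8, 33.8 and 27.3 CPM, which overlapped with 72Q control, and the difference of 0.08 ± 0.087 (log2) did not pass the test (adjusted p = 0.492), with a 95% interval of -0.10 to 0.26. The direct test of shRNA 1 against shRNA 2 gave 0.62 ± 0.084 (log2, adjusted p = 2.67e-06). Compared with 25Q, Id2 was still lower by 0.74 with shRNA 1 and by 1.36 with shRNA 2 on the log2 scale (adjusted p = 8.98e-08 and 8.52e-12). Of 10 cortical excitatory neuron markers 9 were called lower and 1 higher in 72Q. They summed to 2108 to 2165 CPM in 25Q and 945.4 to 1319 in 72Q control. With shRNA 1 the sum was 1318 to 1634 CPM and with shRNA 2 it was 1092 to 1252. The part of these markers in the Id2 values was not tested.

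Id3 showed the largest rise with shRNA 1 among the 8 genes tested. Id3 (chr4:136143497-136145755, plus strand), in other tissues an early target of BMP signalling, was at 9.73, 15.1, 8.22 and 6.35 CPM in 25Q and at 15.1, 16.2, 14.8 and 8.05 CPM in the 72Q control group. Each 72Q library was above its own 25Q library, while the groups overlapped, since exp108 of 25Q was as high as most 72Q libraries. Id3 rose by 0.45 ± 0.14 (log2, edgeR, adjusted p = 0.00815) in the fit with the experiment as a block. Without the block the adjusted p was 0.172, and with a block by the number in the titles it was 0.0744.

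With shRNA 1, Id3 reached 31.2, 38.4, 33.6 and 23.7 CPM. The lowest of these was above the highest of the 72Q control, the shRNA 2 and the 25Q libraries. The rise over 72Q control was 1.24 ± 0.12 (log2), or 2.36-fold (edgeR, adjusted p = 6.32e-08). With shRNA 2, Id3 was at 10.9, 17.7, 14.4 and 12.3 CPM, higher than 72Q control in 2 of 4 experiments. The difference was 0.05 ± 0.13 (log2, adjusted p = 0.793), with a 95% interval of -0.22 to 0.31. In the direct test Id3 was 2.28-fold higher with shRNA 1 than with shRNA 2 (adjusted p = 6.95e-08). Against 25Q, Id3 was 3.23-fold higher with shRNA 1 (adjusted p = 9.82e-10) and 1.42-fold higher with shRNA 2 (adjusted p = 0.00311), the latter with adjusted p = 0.123 without the block.

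Id1 (chr2:152736251-152737410, plus strand), which lies on another chromosome than Id3, had a like order of groups at a lower level. It was at 5.45, 7.40, 2.70 and 3.68 CPM in 25Q and at 7.68, 8.23, 5.88 and 5.21 CPM in the 72Q control group. The groups overlapped, and within each experiment 72Q was higher. The difference of 0.48 ± 0.16 (log2, edgeR, adjusted p = 0.0133) rested on few libraries. Without the 25Q library of exp109a it was 0.28 (adjusted p = 0.0861), without the 72Q control library of exp107 the adjusted p was 0.0506, and without the experiment block it was 0.0914.

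With shRNA 1, Id1 was at 11.1, 11.3, 10.9 and 8.61 CPM, and with shRNA 2 at 6.45, 7.00, 7.57 and 6.21 CPM. The shRNA 1 libraries were above all others, and the shRNA 2 libraries lay within the range of 72Q control. Id1 rose by 0.63 ± 0.14 (log2) with shRNA 1 (edgeR, adjusted p = 0.000736), and the difference with shRNA 2 was 0.03 ± 0.15 (adjusted p = 0.889), with a 95% interval of -0.27 to 0.34. The direct test gave 0.60 ± 0.14 (log2, adjusted p = 0.000885). Against 25Q, Id1 was 2.17-fold higher with shRNA 1 (adjusted p = 1.06e-06). With shRNA 2 it was 1.43-fold higher (adjusted p = 0.00702), which became 0.31 on the log2 scale (adjusted p = 0.0537) without the 25Q library of exp109a and adjusted p = 0.0699 without the block.

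Id4 (chr13:48261427-48264036, plus strand), known for its expression in astrocytes and neural stem cells, answered to shRNA 2 and not detectably to shRNA 1. It was at 36.7, 27.3, 26.6 and 22.5 CPM in 25Q and at 48.6, 39.4, 32.6 and 31.9 CPM in the 72Q control group. The groups overlapped through exp107 of 25Q, but each 72Q library was above its own 25Q library. Id4 rose by 0.43 ± 0.068 (log2, edgeR, adjusted p = 3.9e-06). With shRNA 1 it was at 45.7, 33.1, 35.6 and 36.9 CPM, higher than 72Q control in 2 of 4 experiments, with a difference of -0.0035 ± 0.066 (log2, adjusted p = 0.972) and a 95% interval of -0.14 to 0.13.

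With shRNA 2, Id4 was at 35, 27.9, 23.2 and 24.2 CPM, lower than 72Q control in 4 of 4 experiments although the groups overlapped. It fell by 0.46 ± 0.067 on the log2 scale (edgeR, adjusted p = 1.78e-06). Its level with shRNA 2 and in 25Q differed by -0.04 (log2, adjusted p = 0.675), with a 95% interval of -0.18 to 0.11. With library totals alone that value was 0.17 (adjusted p = 0.0287). Id4 shares 171 exonic bases with A330033J07Rik on the opposite strand, which had 164 reads in all against 9286 for Id4. Markers of astrocytes and radial glia moved beside Id4: 5 of 10 were called higher and 0 lower in 72Q, and 0 higher and 7 lower with shRNA 2. With shRNA 1, 1 was higher and 1 lower. The summed level of these markers was between 2781 and 2945 CPM in 25Q, 2913 and 3266 in 72Q control, 3015 and 3224 with shRNA 1 and 2393 and 2953 with shRNA 2, with none at 0. Their part in the Id4 values was not tested.

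**Figure D2:**
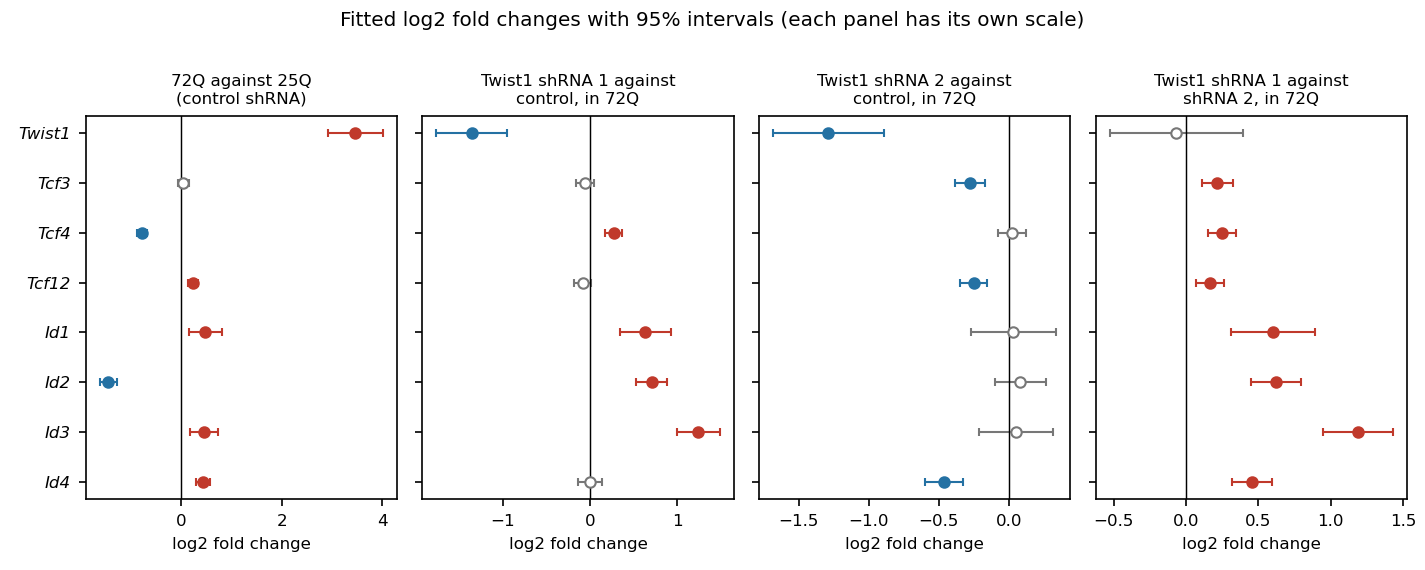
Fitted log2 fold change (x axis, a separate scale for each panel) of each of the 8 genes tested in 4 comparisons, with its 95% interval as a bar. Filled points passed an adjusted p under 0.05, red where higher and blue where lower, and open points did not. Twist1 falls by similar amounts with both hairpins, while Id1, Id2, Id3 and Tcf4 rise with shRNA 1 and Tcf3, Tcf12 and Id4 fall with shRNA 2.

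Counted over the 8 genes, 72Q against 25Q gave 5 higher (Twist1, Tcf12, Id1, Id3, Id4), 2 lower (Tcf4, Id2) and 1 not called (Tcf3). In that comparison 57.1% of all 15103 genes were called, 29.3% higher and 27.8% lower, so a call by itself says little about these genes. In 4 of the 8 the groups did not overlap, where 38.3% of all genes did not. The median log2 fold change was 0.33 over the 8 genes and 0.03 over all genes. With shRNA 1 against 72Q control, 4 were higher (Tcf4, Id1, Id2, Id3) and 1 lower (Twist1), beside 22.7% and 23.6% of all genes, or 46.3% in either direction. Here 5 of the 8 (Twist1, Tcf12, Id1, Id2, Id3) did not overlap, beside 29.0% of all genes, and the median log2 fold change was 0.13. Of these Tcf12 was not called, while Tcf4 was called and did overlap. With shRNA 2, 0 were higher and 4 lower (Twist1, Tcf3, Tcf12, Id4), beside 20.2% and 21.5% of all genes, or 41.8% in either direction. Here 3 of the 8 did not overlap, beside 22.4% of all genes, and the median was -0.11. By DESeq2 and at an unadjusted edgeR p under 0.05 the number higher with shRNA 2 was also 0.

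The direct comparison of the hairpins gave 7 genes higher with shRNA 1 and 0 lower, all but Twist1, beside 27.3% and 25.9% of all genes, or 53.2% in either direction. By DESeq2 and at an unadjusted edgeR p under 0.05 the number lower was also 0. All 7 were higher with shRNA 1 in 4 of 4 experiments. Their fitted log2 differences lay between 0.17 for Tcf12 and 1.19 for Id3, with a median over the 8 genes of 0.35 against 0.005 over all genes. The groups of 5 genes (Tcf3, Tcf4, Id1, Id2, Id3) did not overlap, where this held for 33.2% of all genes. Several marker lists leaned this way too. Of 10 each, 7 oligodendrocyte lineage, 6 astrocyte and radial glia and 7 pan-neuronal markers were higher, and 0, 0 and 2 lower. Inhibitory neuron markers (2 higher, 3 lower of 10) and meningeal and fibroblast markers (2 higher, 4 lower of 6 measured) did not. The part of the cell types in the 7 values was not tested. The comparisons share libraries, so their values are not independent.

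Against 25Q, where 57.4% of all genes were called with shRNA 1 (28.1% higher, 29.4% lower), 5 of the 8 genes were higher (Twist1, Tcf12, Id1, Id3, Id4) and 2 lower (Tcf4, Id2). These were the genes called in 72Q control against 25Q, and the directions were the same. The call of Tcf12, at 0.15 ± 0.048 (log2, edgeR, adjusted p = 0.0081), was lost without the 25Q library of exp108 (adjusted p = 0.052) and without the block (adjusted p = 0.0587), and that of Id4 at 0.42 ± 0.069 (adjusted p = 4.38e-06) was lost without the block (adjusted p = 0.0503). With shRNA 2, 63.3% of all genes were called against 25Q (31.4% higher, 31.8% lower), and of the 8 genes 3 were higher (Twist1, Id1, Id3) and 3 lower (Tcf3, Tcf4, Id2). The libraries of 5 genes did not overlap with 25Q for shRNA 1, beside 40.1% of all genes, and those of 4 for shRNA 2, beside 43.4%. Tcf3 was lower by 0.23 ± 0.053 on the log2 scale in shRNA 2 than in 25Q (adjusted p = 0.000426), which library totals alone reduced to -0.02 (adjusted p = 0.774).

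The summed levels show what these changes made of the whole family. Summed per kilobase of exon, the E-protein genes were at 81.2 ± 7.39 (SD, n = 4) CPM per kilobase in 25Q, 55.7 ± 5.56 in 72Q control, 62.7 ± 5.03 with shRNA 1 and 53.1 ± 2.56 with shRNA 2. The mean level per kilobase of Tcf4 went from 64.8 in 25Q to 38.1 in 72Q control, while those of Tcf3 (11.6 and 12.0) and Tcf12 (4.84 and 5.69) were not lower. The share of Tcf4 went from 79.7% in 25Q to 68.2% in 72Q control. The summed Id level was 90.8 ± 13.4 CPM per kilobase in 25Q, 59.8 ± 8.95 in 72Q control, 87.9 ± 7.96 with shRNA 1 and 55.1 ± 4.80 with shRNA 2. The range with shRNA 1 was 76.2 to 94.3, which overlapped with 25Q (80.6 to 110.5) and not with 72Q control (48.5 to 69.1) or shRNA 2 (48.3 to 59.3).

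The make-up of the Id sum was unlike that of 25Q in all 72Q groups, with or without a Twist1 shRNA. In 25Q, Id2 held 70.6% of it, Id4 19.0%, Id3 5.93% and Id1 4.44%. With shRNA 1, Id2 held 43.7%, Id4 26%, Id3 20.1% and Id1 10.3%. In the same order the shares were 39.6%, 38.3%, 12.5% and 9.68% in 72Q control. With shRNA 2 they were 45.1%, 30.15%, 14.0% and 10.7%. Among the 72Q groups the mean share of Id3 was thus highest, and that of Id4 lowest, with shRNA 1. The Id sum over the E-protein sum was 1.14 ± 0.292 in 25Q, 1.08 ± 0.204 in 72Q control, 1.41 ± 0.157 with shRNA 1 and 1.04 ± 0.108 with shRNA 2. Within experiments the ratio was higher with shRNA 1 than in 72Q control and than in 25Q in 4 of 4, although the ranges of these groups overlapped. The shRNA 1 range of 1.25 to 1.59 lay above the shRNA 2 range of 0.924 to 1.19. Twist1 itself was equal to 0.218% of the E-protein sum per kilobase in 25Q, 4.71% in 72Q control, 1.58% with shRNA 1 and 1.93% with shRNA 2. These are transcript levels, and protein was not measured. The size of the shares and ratios depends on the exon lengths used as divisors.

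**Figure D3:**
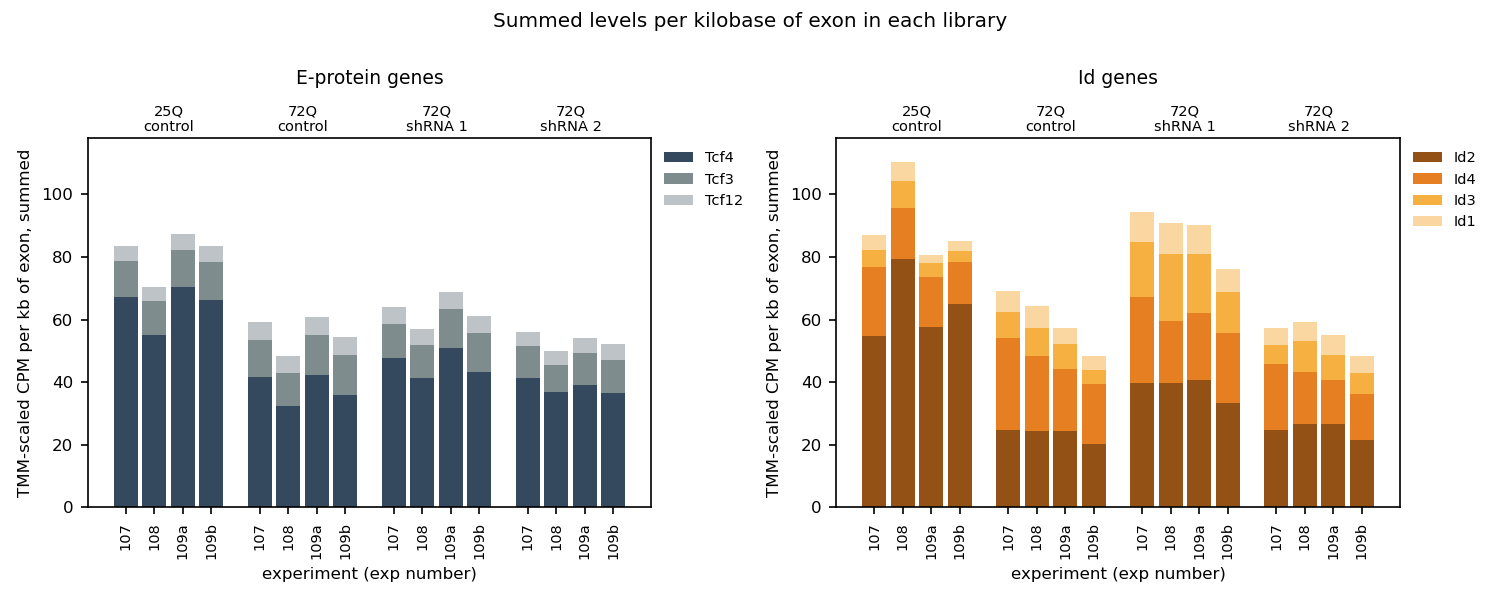
Stacked TMM-scaled CPM per kilobase of exon for the E-protein genes (left) and the Id genes (right), 1 bar for each of the 16 libraries, both panels on the same axis from 0. In 25Q most of both sums is 1 gene, Tcf4 (79.7%) or Id2 (70.6%). With shRNA 1 the Id sum is 76.2 to 94.3, near 25Q, but with larger shares of Id1, Id3 and Id4.

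Other class II bHLH factors that pair with E-proteins were looked at next. The counts of each list stand beside the shares of all genes called that are given above, and the medians beside those of all genes, which were 0.03 in 72Q, -0.0054 with shRNA 1 and 0.0015 with shRNA 2. Of 18 factors of neural lineages, 9 were measured. In 72Q, 3 rose and 4 fell, with a median log2 fold change of 0.08. Bhlhe22, a factor of projection neurons, fell from 194 to 37.3 CPM, by 2.41 ± 0.12 on the log2 scale (edgeR, adjusted p = 4.54e-09). Neurod6 fell by 1.6 ± 0.087 (adjusted p = 2.37e-10) and Neurod1 by 1.06 ± 0.093 (adjusted p = 7.15e-11).

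With shRNA 1, 4 of the 9 rose and 2 fell, with a median of 0.11. Neurod1, a neuronal differentiation factor, rose from 10.6 to 21.2 CPM, by 0.99 ± 0.093 (log2, adjusted p = 3.98e-10), close to its 25Q mean of 22.2 CPM. Olig1 and Olig2, factors of the oligodendrocyte lineage, fell by 0.26 ± 0.048 and 0.24 ± 0.046 (adjusted p = 4.62e-05 and 8.85e-05, and 0.0818 and 0.0938 without the block). Bhlhe22 rose by 0.51 ± 0.12 (adjusted p = 0.005) and Neurod2 by 0.44 ± 0.054 (adjusted p = 6.05e-08). With shRNA 2, 3 rose and 3 fell, with a median of 0.21. Neurog2, a proneural factor, rose from 2.62 to 4.55 CPM, by 0.77 ± 0.15 (adjusted p = 0.000138). Neurod2 rose by 0.27 ± 0.054 (adjusted p = 0.000174), and Olig2 and Olig1 fell by 0.49 ± 0.046 and 0.39 ± 0.048 (adjusted p = 6.92e-10 and 1.26e-07). Cortical excitatory neuron markers, a list that shares Neurod6 and Neurod2, summed to 2108 to 2165 CPM in 25Q and 945.4 to 1319 CPM in 72Q control, with 9 of 10 called lower. Their sum was 1318 to 1634 CPM with shRNA 1 and 1092 to 1252 CPM with shRNA 2, and its part in these values was not tested.

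Of 22 class II factors of mesoderm, muscle and blood, the class to which Twist1 belongs, 9 were measured, and in 72Q 4 rose and 1 fell, with a median of 0.70. Tal1, a blood and endothelial factor, rose from 2.27 to 36.9 CPM, by 3.95 ± 0.13 (log2, edgeR, adjusted p = 6.96e-18). Tal1 fell with both hairpins, by 0.51 ± 0.087 and 0.51 ± 0.086 (adjusted p = 2.59e-05 and 3.25e-05). With shRNA 1, 1 of the 9 rose and 5 fell, with a median of -0.51, and with shRNA 2, 3 rose and 2 fell, with a median of 0.26. Of the called genes, only Tal1, Atoh8, Mesp2 and Tcf24 had a mean of at least 1 CPM and the same sign in 4 experiments. The medians thus rest in part on genes below 1 CPM or of mixed sign. Mesp2, a mesoderm factor, fell with shRNA 1 from 2.11 to 1.29 CPM (log2 -0.66 ± 0.19, adjusted p = 0.00515), and Tcf24 rose with shRNA 2 from 1.96 to 3.18 CPM (0.68 ± 0.17, adjusted p = 0.0021). Markers of endothelial and mural cells were low, with a sum of 3.99 to 4.32 CPM in 25Q, 4.2 to 4.85 CPM in 72Q control, 5.55 to 6.29 CPM with shRNA 1 and 5.74 to 6.79 CPM with shRNA 2. Of 10 such markers 4 were measured, and 1 was at 0 in all 25Q libraries.

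The HES, HEY and DEC repressors, bHLH factors of the Notch pathway and of the clock that bind DNA without E-proteins, changed in both directions. Of 12, 8 were measured. In 72Q, 2 rose and 3 fell, among them Hes6 by 0.66 ± 0.079 on the log2 scale (edgeR, adjusted p = 3.45e-08) and Bhlhe40 by 0.53 ± 0.074 (adjusted p = 4.67e-07). Hes7, a segmentation clock gene, rose from 1.77 to 3.15 CPM in 72Q (0.79 ± 0.17, adjusted p = 0.000217) and fell with shRNA 1 to 1.96 CPM (-0.65 ± 0.17, adjusted p = 0.00162). With shRNA 1, 1 rose and 2 fell, and with shRNA 2, 1 rose and 1 fell. The medians were -0.24 in 72Q, -0.16 with shRNA 1 and 0.01 with shRNA 2.

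BMP and SMAD genes, the pathway upstream of Id transcription, were nearly all measured, 25 of 27. In 72Q, 6 rose and 9 fell, with a median of -0.02. Smad9, a BMP effector, rose by 0.74 ± 0.087 (log2, edgeR, adjusted p = 1.92e-08), Smad5 by 0.41 ± 0.051 (adjusted p = 5.59e-08) and the receptor Bmpr1a by 0.33 ± 0.047 (adjusted p = 4.88e-07). The ligand Bmp2 fell from 6.38 to 3.03 CPM, by 1.07 ± 0.17 (adjusted p = 4.27e-06), and the antagonist Nog fell by 0.75 ± 0.16 (adjusted p = 0.000133).

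With shRNA 1, in which Id1, Id2 and Id3 rose, 2 of the 25 rose and 8 fell, with a median of -0.10. Smurf2, a ubiquitin ligase that lowers BMP signalling, fell from 60.2 to 31.2 CPM, by 0.94 ± 0.054 on the log2 scale (edgeR, adjusted p = 7.36e-15). Smad7, an inhibitory SMAD, fell by 0.58 ± 0.10 (adjusted p = 2.18e-05), Smad9 fell by 0.72 ± 0.086 (adjusted p = 4.25e-08), and Bmpr1a rose by 0.22 ± 0.046 (adjusted p = 0.000248). With shRNA 2, 3 rose and 8 fell, with a median of -0.02. Bmp2 rose to 5.28 CPM, by 0.79 ± 0.17 (adjusted p = 0.000372), Smurf1 fell by 0.54 ± 0.048 (adjusted p = 1.93e-10), and Smad9 fell by 0.45 ± 0.083 (adjusted p = 5.36e-05). In the direct test of the hairpins 7 of the 25 were higher and 9 lower with shRNA 1, with a median of -0.07.

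**Figure D4:**
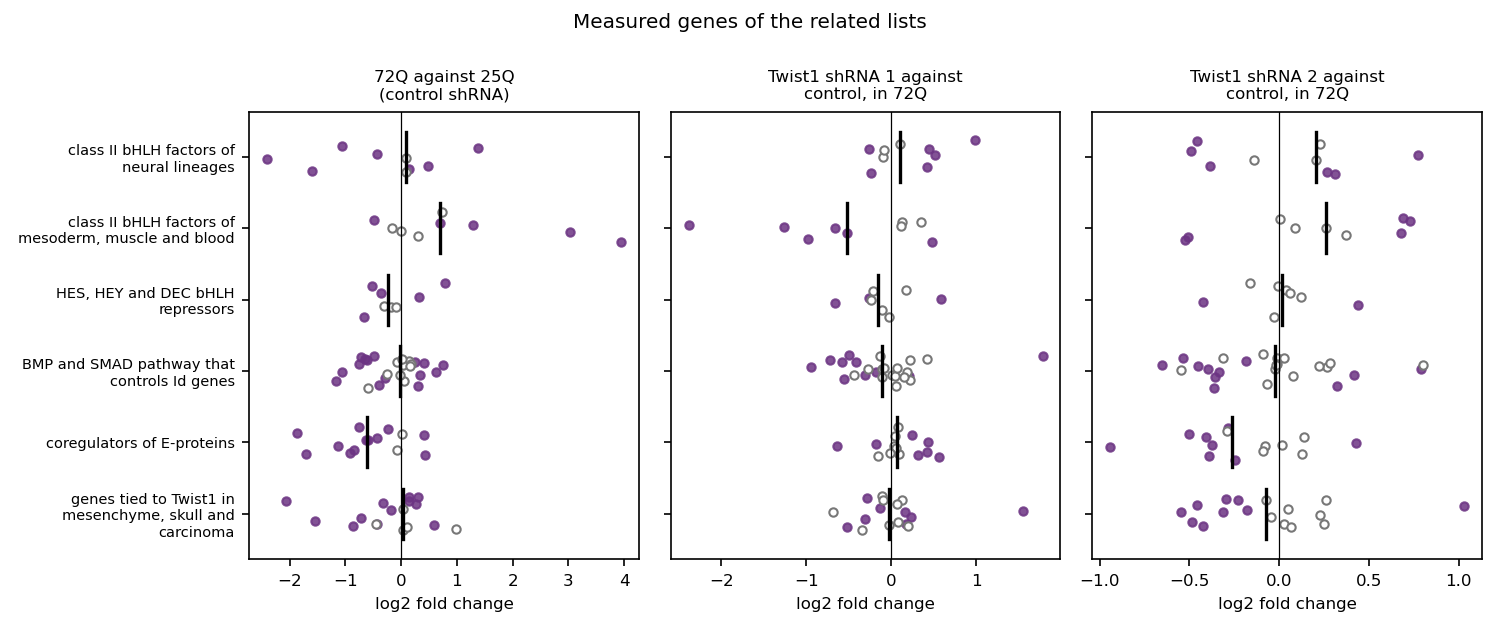
Log2 fold changes (x axis, a separate scale for each panel) of every measured gene of the 6 related lists in 72Q against 25Q and with each hairpin against 72Q control. Each point is a gene, filled where called at an adjusted p under 0.05 and open where not, and the thick bar is the median of the list. Points are spread vertically only to keep them apart. The coregulators of E-proteins lie mostly left of 0 in 72Q (10 of 14 called lower), and Tal1 is the point farthest to the right in 72Q, at 3.95.

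Coregulators that bind E-proteins or their complexes were all measured, 14 of 14, and 10 fell and 2 rose in 72Q, with a median of -0.61 beside 0.03 over all genes. Neuronal markers fell in the same libraries, 9 of 10 of cortical excitatory neurons (median -0.79) and 7 of 10 pan-neuronal ones (median -0.36), and their part in these values was not tested. Ldb2, a LIM-domain bridging protein, fell by 1.87 ± 0.14 on the log2 scale (edgeR, adjusted p = 8.52e-07). The LIM-only genes Lmo4 and Lmo1 fell by 1.70 ± 0.054 and 1.14 ± 0.082 (adjusted p = 2.4e-20 and 8.79e-13). The acetyltransferases Ep300 and Crebbp rose by 0.43 ± 0.070 and 0.41 ± 0.055 (adjusted p = 2.82e-05 and 3.14e-07).

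The hairpins gave different counts in this list. With shRNA 1, 5 rose and 2 fell, and with shRNA 2, 1 rose and 7 fell, and in the direct test 9 were higher and 1 lower with shRNA 1. The medians were 0.07, -0.26 and 0.32. Cbfa2t3, a corepressor of the ETO family, was at 11.7 CPM in 72Q control, 17.3 CPM with shRNA 1 and 6.01 CPM with shRNA 2. It rose by 0.57 ± 0.11 (log2) with shRNA 1 and fell by 0.94 ± 0.12 with shRNA 2 (adjusted p = 8.91e-05 and 7.35e-07). Its relative Runx1t1 fell by 0.41 ± 0.062 with shRNA 2 (adjusted p = 4.29e-06), as did Lmo4 by 0.50 ± 0.056 (adjusted p = 1.78e-08). Lmo1 and Tle1, a Groucho corepressor, rose by 0.43 ± 0.086 and 0.43 ± 0.056 with shRNA 1 (adjusted p = 0.000119 and 2.42e-07).

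Genes tied to Twist1 in mesenchyme, skull and carcinoma were listed without regard to the direction of the tie. The counts and the median of this list therefore cannot say whether its genes followed Twist1. Of 23, 17 were measured, and while Twist1 rose in 72Q, 5 rose and 7 fell, with a median of 0.03. Postn, a matrix protein of mesenchyme, fell from 6.90 to 1.6 CPM, by 2.07 ± 0.22 on the log2 scale (edgeR, adjusted p = 9.36e-08), and Fn1, fibronectin, by 1.54 ± 0.11 (adjusted p = 8.82e-10). Postn rose with shRNA 1 by 1.55 ± 0.23 (adjusted p = 1.22e-05) and with shRNA 2 by 1.03 ± 0.24 (adjusted p = 0.00168, and 0.123 without the block). Zeb2 fell by 0.86 ± 0.050 in 72Q (adjusted p = 9.64e-15). Fgfr1 rose in 72Q by 0.26 ± 0.046 (adjusted p = 1.86e-05) and Bmi1 by 0.30 ± 0.060 (adjusted p = 7.98e-05).

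With the hairpins, 4 of the 17 rose and 4 fell for shRNA 1, and 1 rose and 8 fell for shRNA 2, with medians of -0.02 and -0.07. In the direct test of the hairpins 9 of the 17 were higher and 1 lower with shRNA 1, with a median of 0.17. Zeb1, a repressor of epithelial genes, fell with both, by 0.31 ± 0.051 and 0.48 ± 0.051 on the log2 scale (edgeR, adjusted p = 1.02e-05 and 5.9e-09). Pdgfra, which also marks oligodendrocyte precursors, fell by 0.28 ± 0.046 and 0.55 ± 0.047 (adjusted p = 1.13e-05 and 7.23e-11). Of the 10 oligodendrocyte lineage markers, a list that holds Pdgfra, Olig1 and Olig2, 6 were called lower with shRNA 1 and 7 with shRNA 2, and none higher. Ybx1 fell with shRNA 1 from 857 to 599 CPM, by 0.52 ± 0.047 (adjusted p = 1.56e-10), and Vim with shRNA 2 by 0.46 ± 0.050 (adjusted p = 1.1e-08). Meningeal and fibroblast markers, cells in which Twist1 is known, summed to 13.4 to 27.6 CPM in 25Q (median 15.8) and 18.5 to 28.9 CPM in 72Q control (median 19.9). The sum was 20 to 26 CPM with shRNA 1 and 21.9 to 30.7 CPM with shRNA 2. Of the 10 markers 6 were measured, none at 0 in a whole group, and in 72Q 3 were called higher and 2 lower, with a median log2 fold change of 0.74. Its part in the Twist1 values was not tested.

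The genes whose pattern over the 16 libraries was most like that of each member were found on the scale of log2(CPM + 1). The measure was the root mean square of the difference of centred values, over 13591 genes with a mean of at least 1 CPM. For Twist1 they were Mamstr, Cdca3 and Sumf2, at 0.33, 0.34 and 0.35, where the median of all genes was 0.77. Cdca3 was at 3.88 CPM in 25Q, 12.7 in 72Q control, 7.31 with shRNA 1 and 6.60 with shRNA 2. Sumf2 was at 30.1 CPM in 25Q and 71.5 in 72Q control. The added 1 compresses the changes of a gene as low as Twist1, so its likeness to genes with smaller folds holds on this scale only. Cdca3 is a cell division gene, and of 10 markers of cycling progenitors 6 were called higher and 0 lower in 72Q, 0 higher and 3 lower with shRNA 1, and 0 higher and 6 lower with shRNA 2. Their sum was 176.8 to 250.6 CPM in 25Q, 218 to 287 CPM in 72Q control, 219.8 to 259.5 CPM with shRNA 1 and 173 to 223 CPM with shRNA 2, and its part in the Twist1 values was not tested. For Id3 they were Rgs13, Slitrk6 and Tuba8, at 0.25, 0.32 and 0.32, against a median of 0.72. Rgs13 was at 2.21, 2.88, 8.17 and 3.61 CPM in the same order of groups.

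For Id2 the nearest were Vps50, Csrp2 and Snx16 (0.14 each, median 0.62), for Id1 Asl, Tubgcp5 and Pcsk1 (0.22, 0.23 and 0.23, median 0.50), and for Id4 Rin2, Pbxip1 and Gja1 (0.11, 0.13 and 0.14, median 0.38). Gja1, the astrocyte connexin, was at 147 CPM in 25Q, 192 in 72Q control, 202 with shRNA 1 and 128 with shRNA 2. Those of the E-protein genes were Sgsm2, Sema4c and Sobp for Tcf4, Src, Alg10b and Sema5b for Tcf3, and Ap3s2, Eif4enif1 and Sec24b for Tcf12. Of these 24 genes none was a member, and the likeness describes these 16 libraries only.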

How the data were processed

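RNA of primary mouse cortical neurons was depleted of ribosomal RNA with Ribo-Zero, per the labels' protocols. Reads were aligned with STAR 2.0.4b and counted with featureCounts 1.45 of Subread on GRCm38, per the submitters' processing notes. For each Ensembl gene the authors deposited a raw count, a CPM and an RPKM value, of which only the counts were used. Neither the strand setting nor the gene annotation is named in any source used here. Symbols were found for 40254 of 41388 genes (97.3%).

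Counts were tested with edgeR 4.0.16 (limma 3.58.1, R 4.3.3) as given in the report, over all 16 libraries, with a prior count of 2. DESeq2 1.42.0 served as an alternative. The biological coefficient of variation was 5.24%. Deviations of libraries from their group means gave r = 0.30 to 0.70 in 24 pairs of the same experiment and different groups. In 72 pairs of different experiments and groups r was -0.43 to 0.39, which overlaps that range. Taking out the group means lowers r between experiments by construction. The experiment was used as the block because the labels give 1 library of each group in each experiment. Replicates of a group differed by 2.74 to 21.9 times counting noise (chi-square per degree of freedom). Intervals on counts cover counting error only. The procedure was tested on simulated data that held no experiment effect, so that test does not cover the use of the block. Members and gene lists were chosen with earlier results of these data known. From each list, up to 3 called genes in each direction with the largest change, a mean of at least 1 CPM and the same sign in 4 experiments could be named.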

Additional observations from a re-analysis of the deposited data

Results flagged for a closer look

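Of 36 groups of 4 libraries, 4 held a library that stood apart from the rest of its group, where about 1 in 20 is flagged by chance. Tcf12 with shRNA 1 was at 79.6 CPM in exp108, below the other libraries at 84.5 to 84.7 CPM. Id2 in 72Q control was at 25.8 CPM in exp109b, with the others at 31.1 to 31.5 CPM. Id2 with shRNA 1 was at 42.4 CPM in exp109b, with the others at 50.4 to 51.6 CPM. Id1 with shRNA 1 was at 8.61 CPM in exp109b, with the others at 10.9 to 11.3 CPM. The last 3 are all libraries of exp109b, in which Id1, Id2, Id3 and Id4 of the 72Q control group were each at their lowest. Leaving out any of these libraries ended no call of the gene in question.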

How the results depend on the processing

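Of 48 comparisons of the 8 genes, 36 were called. DESeq2, its size factors in edgeR, upper-quartile factors, no filter on low counts and a fit of only the groups compared kept all 36 calls. Without the replicate block 30 remained. Id1 and Id3 in 72Q against 25Q and with shRNA 2 against 25Q lost their calls, as the report says. Tcf12 and Id4 with shRNA 1 against 25Q became 0.15 (adjusted p = 0.0587) and 0.42 (adjusted p = 0.0503). Over all genes, no block lowered the called genes from 6999 to 4561 with shRNA 1 and from 6307 to 3621 with shRNA 2. The title number as block, which joins 25Q libraries of other experiments, kept 35 calls. In 9 such pairs of libraries r was -0.32 to -0.04, where taking out the group means lowers r between experiments by construction.

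Library totals alone kept 34 of the 36 calls and moved the median log2 fold change of all genes in 72Q against 25Q from 0.03 to 0.16, in shRNA 1 against 25Q to 0.13 and in shRNA 2 against 25Q to 0.22. The share of calls that were higher moved from 51.4% to 69.7%, from 48.9% to 66.5% and from 49.7% to 72.3%, and it moved from 48.5% to 65.3% with shRNA 2 against 72Q control and from 51.3% to 36.5% in shRNA 1 against shRNA 2. Upper-quartile factors gave 61.2% for shRNA 1 and 61.5% for shRNA 2 against 25Q. With totals alone, Tcf3 with shRNA 2 against 25Q went from -0.23 to -0.02 (adjusted p = 0.774).

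Signs reversed only for values that were near 0 and not called in the main fit. Id4 with shRNA 1 was 0.00037 with DESeq2 size factors, 0.019 with upper-quartile factors, 0.0076 without the filter and 0.0049 with DESeq2. Against 25Q, Tcf3 with shRNA 1 was 0.074 with upper-quartile factors, 0.12 with totals alone and 0.0048 with only these groups. Tcf12 with shRNA 2 was 0.084, 0.19 and 0.0043 in the same order, and Id4 with shRNA 2 was 0.064 and 0.17 with the first 2. With totals alone these values of Tcf12 and Id4 passed the test (edgeR, adjusted p = 0.000663 and 0.0287). Leaving out a library gave -0.22 to 0.068 for Twist1 in shRNA 1 against shRNA 2, -0.072 to 0.064 for Id4 with shRNA 1, and -0.076 to 0.13, -0.046 to 0.16 and -0.024 to 0.079 for Id1, Id3 and Tcf4 with shRNA 2. Against 25Q it gave -0.036 to 0.025 for Tcf3 with shRNA 1, and -0.053 to 0.021 and -0.086 to 0.0066 for Tcf12 and Id4 with shRNA 2. Of 576 such fits of called values 4 lost the call, the 3 of Id1 in the report and Tcf12 with shRNA 1 against 25Q without the 25Q library of exp108 (adjusted p = 0.052). The cause of these changes was not tested. For the 77 named values of the lists, 62 of 1848 alternatives lost the call and none reversed. Depth limits Twist1 in 25Q (18 reads) and Twist2.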
